A study of Mus musculus with 24 samples.

Results

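The genes described here are S100a8, S100a9, Csf3r, Mmp9, Ngp, Ltf, Fpr2 and Clec4d, 8 of the 12393 genes that the array annotation names with a single symbol. They were taken by symbol and are measured by 9 of the 22690 probe sets, 2 of them for Mmp9. Their levels over the 8 groups of mice were known when they were picked, so their differences between groups are given as values without a test. All of them are genes that neutrophils express. The arrays are Affymetrix Mouse 430A 2.0, hybridized with RNA from the left lung lobe of 24 male mice, 1 array per mouse. HeJ stands for C3H/HeJ, the strain with the dominant negative Tlr4 (the receptor for bacterial lipopolysaccharide), and OuJ for C3H/HeOuJ, its relative with a sufficient Tlr4. In each strain 3 mice breathed air and 3 each were given ozone, an oxidizing gas that damages the lining of the airways, for 6, 24 or 48 h. Neither the ozone concentration nor the age of the mice is given in the sources used, and an exposure of 72 h named in the protocol was not analysed here.

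Neutrophils are short-lived white cells that leave the blood for injured tissue, and airway inflammation with neutrophils is a known response to inhaled ozone. S100a8 and S100a9 encode the calcium-binding subunits of calprotectin, which fills much of the neutrophil cytoplasm, binds zinc and manganese, and acts as a ligand of TLR4 outside the cell. Csf3r is the receptor for the growth factor G-CSF, Fpr2 a receptor for formylated peptides and Clec4d a C-type lectin receptor of myeloid cells. Ltf (lactoferrin), Ngp (neutrophilic granule protein) and Mmp9 (gelatinase B) are stored in neutrophil granules and made while the cells mature in the bone marrow.

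S100a8 and S100a9 lie in the cluster of S100 genes on chromosome 3, on opposite strands, with 0 protein-coding genes between them in the RefSeq annotation of GRCm38.p6. Their promoters are shown as a description only. A link between their motifs and the RNA levels was not tested. The S100a8 window is chr3:90668821-90669120 on the plus strand and the S100a9 window is chr3:90695672-90695971 on the minus strand, each running from 250 bases before to 50 bases after the start that RefSeq annotates. Capitals mark matches to TATAAA (the TATA box), GAGGAA on either strand (an ETS core of the kind that PU.1 binds) and TTGCNNAA on either strand (a C/EBP motif).
S100a8: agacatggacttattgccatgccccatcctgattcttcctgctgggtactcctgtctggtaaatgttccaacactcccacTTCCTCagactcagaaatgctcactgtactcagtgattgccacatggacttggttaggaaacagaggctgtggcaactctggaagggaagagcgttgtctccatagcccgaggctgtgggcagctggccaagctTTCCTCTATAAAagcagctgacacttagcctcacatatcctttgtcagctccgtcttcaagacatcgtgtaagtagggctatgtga
S100a9: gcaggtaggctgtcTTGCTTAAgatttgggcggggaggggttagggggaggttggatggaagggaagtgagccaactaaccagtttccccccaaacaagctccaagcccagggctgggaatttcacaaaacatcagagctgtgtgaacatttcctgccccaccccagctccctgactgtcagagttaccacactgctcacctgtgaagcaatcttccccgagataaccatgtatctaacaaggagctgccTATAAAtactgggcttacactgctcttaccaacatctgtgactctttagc
In the S100a8 window TATAAA begins at position -30 from the start, and GAGGAA is on the opposite strand at positions -170 and -36, with the match at -36 adjoining TATAAA without overlap. The S100a9 window holds TTGCNNAA at position -236 and a TATAAA that begins at the annotated start itself. Among all 32851 promoter windows of that length, 13.6% hold TATAAA, 28.3% GAGGAA and 10.8% TTGCNNAA, each searched on both strands. RefSeq windows were given for 7 of the 8 genes, all but Mmp9.

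Signals are linear intensities that the authors scaled per array, and array medians lay between 200.1 and 229.3. Differences are on a log2(signal + 16) scale, where a value of -1 means about a 2-fold lower signal and low signals are compressed. A gene was tested when its signal exceeded 218.3 (the median over every probe set and array) in 3 or more arrays, which left 8008 genes. The 8 genes all passed through 1 probe set each, but Clec4d did so in 3 arrays only, all of them after 48 h of ozone, where it was highest. Many other genes of neutrophils, from lists described later, did not pass. Among them, Mpo (myeloperoxidase), Elane (elastase), Camp (cathelicidin), Cxcr2 (a chemokine receptor) and Itgam (CD11b) reached at most 233.5, 89.4, 123.8, 137.8 and 82.1. In such bulk tissue, fewer cells of a type and less RNA per cell cannot be told apart. Codes of the mice fall into 3 series, with all air and 6 h mice in series 3, OuJ mice after 24 and 48 h in series 10 and HeJ mice after 24 and 48 h in series 13. Differences of 24 or 48 h from air therefore cannot be told apart from the code series, and each strain's 3 ozone times share the same 3 air arrays. Tlr4 had signals of 160.6 to 299.4 by its brighter probe set, with no difference past the threshold between any of the groups compared. Its second probe set, below the filter and not tested, had 24.4 to 148.8 and differed from air by 0.82 ± 0.36 in HeJ lungs at 24 h (log2 ± SE). A transcript level is no check of a mutation that alters the protein.

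Mean calprotectin RNA was lower after ozone than in air at every time in both strains, and lowest in OuJ lungs after 24 h. In HeJ mice S100a8 had signals of 949.7, 678.2 and 818.3 in air, 588.2, 807.9 and 580.8 after 6 h, 328.6, 792.8 and 812.5 after 24 h, and 864.9, 689.8 and 397.5 after 48 h. In OuJ mice it had 1436.0, 1032.1 and 1078.7 in air, 1129.4, 615.1 and 806.2 after 6 h, 351.9, 318.9 and 180.2 after 24 h, and 652.8, 586.0 and 373.3 after 48 h. All 6 OuJ mice of 24 and 48 h lay below all OuJ mice in air, whereas the HeJ groups overlapped at every time. In HeJ lungs, 1 mouse at 24 h and 1 at 48 h had signals as low as OuJ mice of 24 h or near them, and their group mates were in the range of air. Relative to air, S100a8 differed by -0.30, -0.43 and -0.37 after 6, 24 and 48 h in HeJ lungs and by -0.50, -2.04 and -1.14 in OuJ lungs (log2, each with an SE of 0.32, n = 3 per group). With 1 array left out, the HeJ value at 24 h ran from -0.64 (without replicate 3 of 24 h) to -0.01 (without replicate 1). The HeJ value at 48 h ran from -0.61 (without replicate 1 of 48 h) to -0.06 (without replicate 3). The OuJ values stayed between -2.21 and -1.76 at 24 h and between -1.29 and -0.90 at 48 h.

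S100a9 followed the same order of times within OuJ and lay below air in more of the HeJ mice. Its HeJ signals were 1070.5, 758.4 and 902.4 in air, 591.3, 674.8 and 415.0 after 6 h, 309.4, 720.6 and 624.8 after 24 h, and 835.7, 464.2 and 381.6 after 48 h. Its OuJ signals were 1361.2, 909.4 and 1037.7 in air, 946.9, 453.5 and 596.7 after 6 h, 253.1, 233.5 and 292.0 after 24 h, and 418.8, 477.0 and 300.6 after 48 h. HeJ mice of 6 and 24 h were all below HeJ air, with an overlap only at 48 h, and OuJ mice of 24 and 48 h were all below OuJ air. The differences from air after 6, 24 and 48 h were -0.70, -0.78 and -0.75 in HeJ lungs and -0.76, -2.01 and -1.44 in OuJ lungs (log2, each with an SE of 0.30). With 1 array left out, the 24 h value in HeJ lungs ran from -1.01 (without replicate 2 of 24 h) to -0.42 (without replicate 1). In OuJ lungs the 24 h value stayed between -2.13 and -1.85 whichever array was left out.

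**Figure D1:**
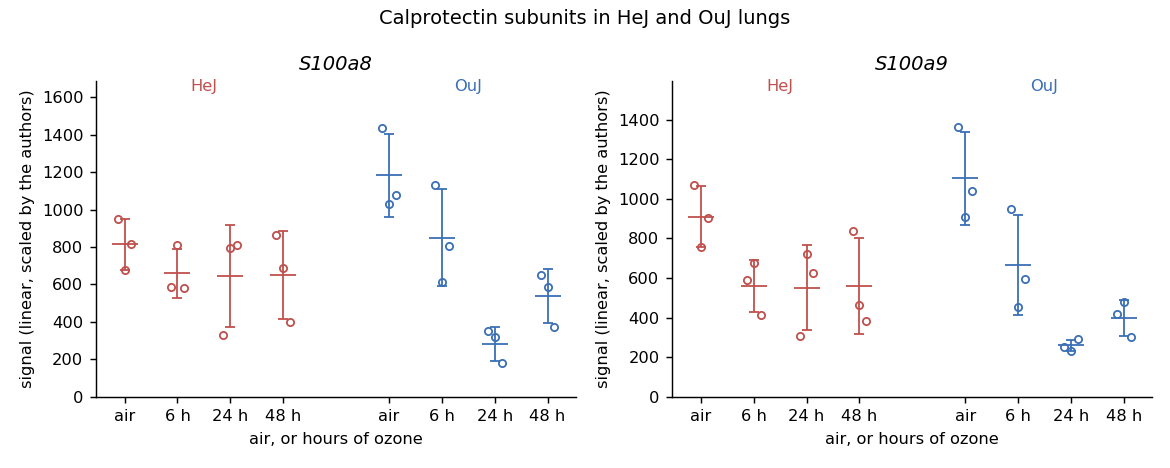
Signal (linear, scaled by the authors) of S100a8 and S100a9 against exposure, with HeJ on the left and OuJ on the right of each panel; circles are single mice, and horizontal marks with bars are the mean and SD of 3 mice. S100a8 in OuJ lungs averaged 1182 in air and 283.7 after 24 h, and the HeJ groups of 24 and 48 h spread over a wider range than HeJ air for both genes.

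By group mean, S100a8 was highest in OuJ air (1182 ± 221, SD, n = 3) and then, in falling order, in OuJ 6 h, HeJ air, HeJ 6 h, HeJ 48 h, HeJ 24 h, OuJ 48 h and OuJ 24 h (283.7 ± 91.1). The order for S100a9 was OuJ air (1103 ± 233), HeJ air, OuJ 6 h, HeJ 48 h, HeJ 6 h, HeJ 24 h, OuJ 48 h and OuJ 24 h (259.5 ± 29.8). Among neighbours in either order, only OuJ 48 h and OuJ 24 h had signals that did not overlap. The share of all genes without overlap was counted only for ozone against air, so none stands beside this or beside the strains in air. The difference of 48 from 24 h in OuJ lungs was 0.90 for S100a8 and 0.57 for S100a9, against 0.05 and 0.03 in HeJ lungs, and these comparisons lie within 1 series of codes each.

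In air, S100a8 had 678.2 to 949.7 in HeJ lungs and 1032.1 to 1436.0 in OuJ lungs, with no overlap and a difference of -0.52. Fpr2 did not overlap in air either, with 809.0 to 870.0 in HeJ and 881.8 to 895.0 in OuJ lungs. The ratio of 5' to 3' Gapdh signal, a measure of RNA length, was 0.511 to 0.621 in HeJ air and 0.781 to 0.933 in OuJ air. Strain and this ratio therefore cannot be told apart in air, and the part of RNA length was not tested. S100a9 overlapped between the strains in air, with a difference of -0.27. The change in HeJ lungs minus that in OuJ lungs at 24 h was 1.61 ± 0.45 for S100a8 and 1.23 ± 0.42 for S100a9 (log2 ± SE), and at 48 h 0.76 and 0.69. Leaving out each array in turn gave 1.33 to 2.03 for S100a8 and 1.00 to 1.59 for S100a9 at 24 h, and 0.53 to 1.07 and 0.37 to 0.91 at 48 h, with the lowest values of 48 h without replicate 1 of HeJ 48 h. Over all genes this strain difference of the ozone change passed an adjusted p of 0.05 for 0.0125% at 6 h, 0.0125% at 24 h and 0% at 48 h, and for 0 of the 8 genes at each time. The 8 were chosen on these same values, so nothing is read from their count. At 48 h, where limma called 0 genes, 658 had an unadjusted p under 0.05.

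In OuJ lungs at 24 and 48 h the 3 receptors differed from air by less than calprotectin. Csf3r had 301.8, 276.2 and 311.9 in HeJ air, 223.3, 244.7 and 231.9 after 6 h, 238.9, 242.4 and 208.3 after 24 h, and 242.3, 310.4 and 191.7 after 48 h. In OuJ lungs it had 339.6, 230.1 and 388.6 in air, 270.1, 254.4 and 335.1 after 6 h, 280.7, 211.5 and 188.3 after 24 h, and 223.9, 212.3 and 181.2 after 48 h. HeJ mice were below air without overlap at 6 and 24 h and OuJ mice at 48 h, and the differences from air ran from -0.57 (OuJ 48 h) to -0.13 (OuJ 6 h), with an SE of 0.19. Csf3r signals lay close to the filter, above it in 18 of 24 arrays.

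Fpr2 varied least of the 8, by 1.72-fold between its highest and lowest array. Its signals in HeJ lungs were 621.1, 683.5 and 721.6 after 24 h and 583.8, 743.6 and 724.7 after 48 h, against 816.2, 870.0 and 809.0 in air. In OuJ lungs they were 732.6, 742.3 and 749.4 after 24 h and 681.2, 846.0 and 808.9 after 48 h, against 895.0, 881.8 and 883.0 in air. All 12 mice of 24 and 48 h were thus below the air mice of their strain, by -0.30 and -0.28 in HeJ and -0.25 and -0.19 in OuJ lungs at 24 and 48 h (log2, SE 0.13), while the 6 h groups overlapped with air.

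Clec4d was the only one of the 8 with a higher signal after ozone beyond the range of air. Its HeJ signals were 231.4, 254.0 and 186.6 after 48 h, against 141.9, 127.3 and 139.7 in air, a difference of 0.65 ± 0.22. They were also above those of 24 h (163.4, 179.0 and 118.4). OuJ signals of 236.9, 137.6 and 193.8 after 48 h overlapped with 150.7, 131.6 and 174.0 in air, a difference of 0.27. Because Clec4d passed the filter only through its 48 h arrays, these values describe the arrays that admitted it. The probe sets of Clec4d and S100a8 carry the suffix _s_at, which Affymetrix gives where probes match more than 1 transcript.

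In HeJ lungs the log2 differences of the granule protein genes Ltf, Ngp and Mmp9 (brighter probe set) from air were negative at each time. That of Ltf at 6 h was only -0.004. In OuJ lungs their signs were mixed. Ltf had 683.9, 417.8 and 554.6 in HeJ air and 294.5, 383.0 and 449.4 in OuJ air, with overlap. In HeJ lungs it differed from air by -0.25 at 24 h and by -0.51 ± 0.23 at 48 h (526.3, 369.6 and 272.0), and without the suffixed arrays described later by -0.40 at 6 h and -0.74 at 24 h. In OuJ lungs its largest difference from air was 0.08, at 6 h. Lactoferrin is also made by glands of the airways. Ngp ranged from 159.0 to 464.1, and in HeJ lungs 1 air mouse (464.1) and 1 mouse of 48 h (448.4) stood far above their group mates, which had 205.4 to 217.2 and 159.0. Its HeJ differences from air were -0.34, -0.10 and -0.27 at 6, 24 and 48 h, and 0.02, 0.26 and 0.09 without the high air mouse. Without the high mouse of 48 h in its place, the 48 h value was -0.74. Ngp in OuJ lungs differed from air by -0.03 to 0.16.

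Mmp9 by its brighter probe set ran from 193.5 to 360.5 in all arrays, and its differences from air were -0.29, -0.21 and -0.17 in HeJ and -0.09, -0.26 and -0.23 in OuJ lungs after 6, 24 and 48 h (log2, SE 0.17). HeJ mice of 6 h (239.3, 288.4 and 217.7, against 288.6, 290.2 and 340.4 in air) and OuJ mice of 24 h (265.9, 244.5 and 240.0, against 282.3, 273.8 and 360.5) lay below air without overlap. The second probe set of Mmp9 stayed between 18.4 and 112.0, below the filter in every array. It gave -0.12, 0.14 and 0.48 in HeJ lungs, opposite in sign to the brighter one at 24 and 48 h, and -0.99, -0.88 and -0.65 in OuJ lungs (log2, SE 0.36).

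**Figure D2:**
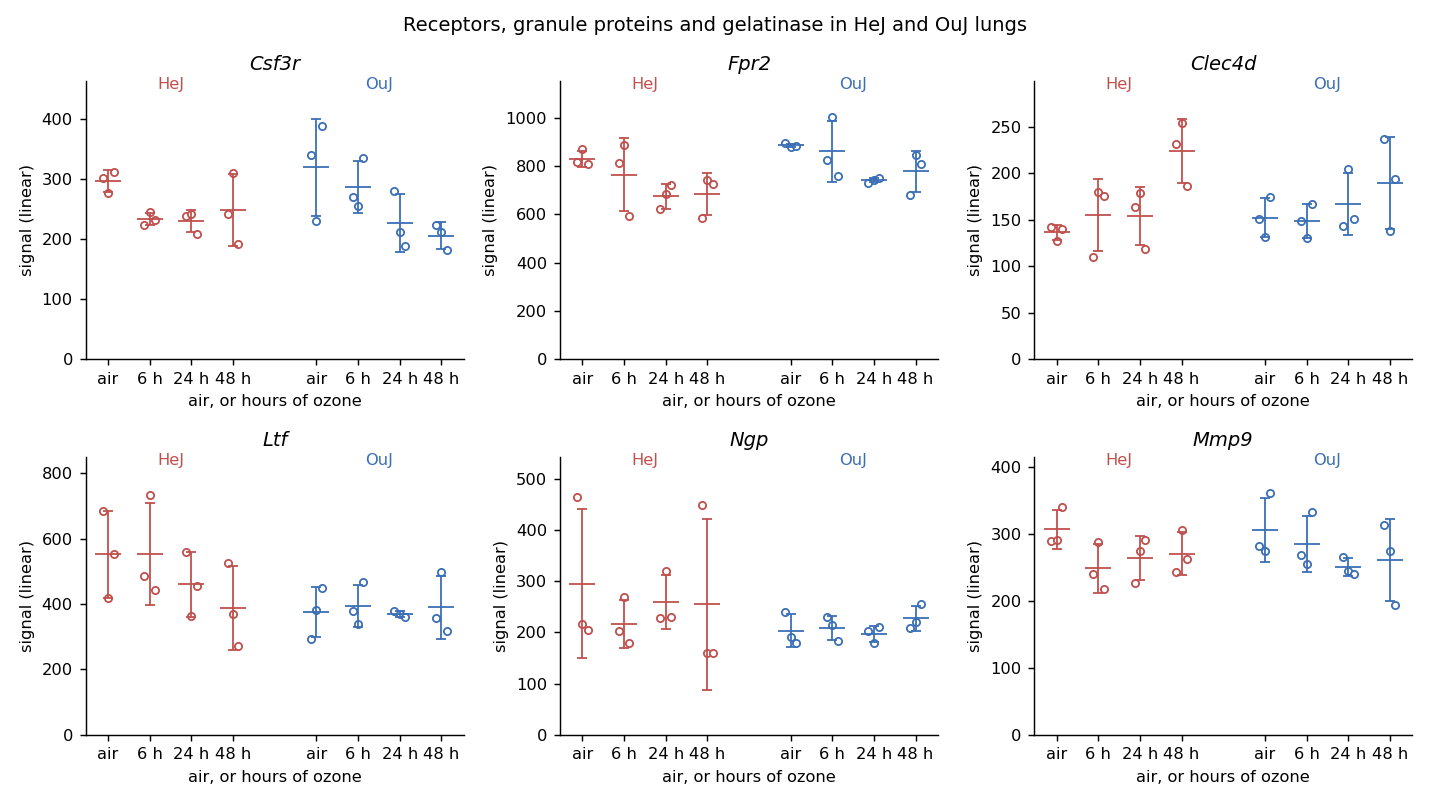
Signal (linear, scaled by the authors) of Csf3r, Fpr2, Clec4d, Ltf, Ngp and Mmp9 (brighter probe set) against exposure, HeJ left and OuJ right; circles are single mice, and marks with bars are the mean and SD of 3. Fpr2 at 24 and 48 h lies below air in both strains, Clec4d is highest in HeJ lungs after 48 h, and 2 HeJ mice stand out for Ngp.

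Counted over the 8 genes, all 3 ozone arrays lay below all 3 air arrays for 3 genes at 6 h in HeJ lungs (7.06% of all genes tested did), 3 at 24 h (13.6%) and 1 at 48 h (17.1%). In OuJ lungs the counts were 0 at 6 h (9.03%), 4 at 24 h (15%) and 4 at 48 h (17.3%). Only Clec4d at 48 h in HeJ lungs lay above, where 13.7% of all genes did. In the fit of all genes, 2 of the 8, S100a8 and S100a9, had an adjusted p under 0.05 in OuJ lungs at 24 h (6.57% of all genes) and at 48 h (7.9%), and 0 of the 8 did in the other ozone comparisons. The genes were chosen on these same values, so nothing is read from these counts.

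**Figure D3:**
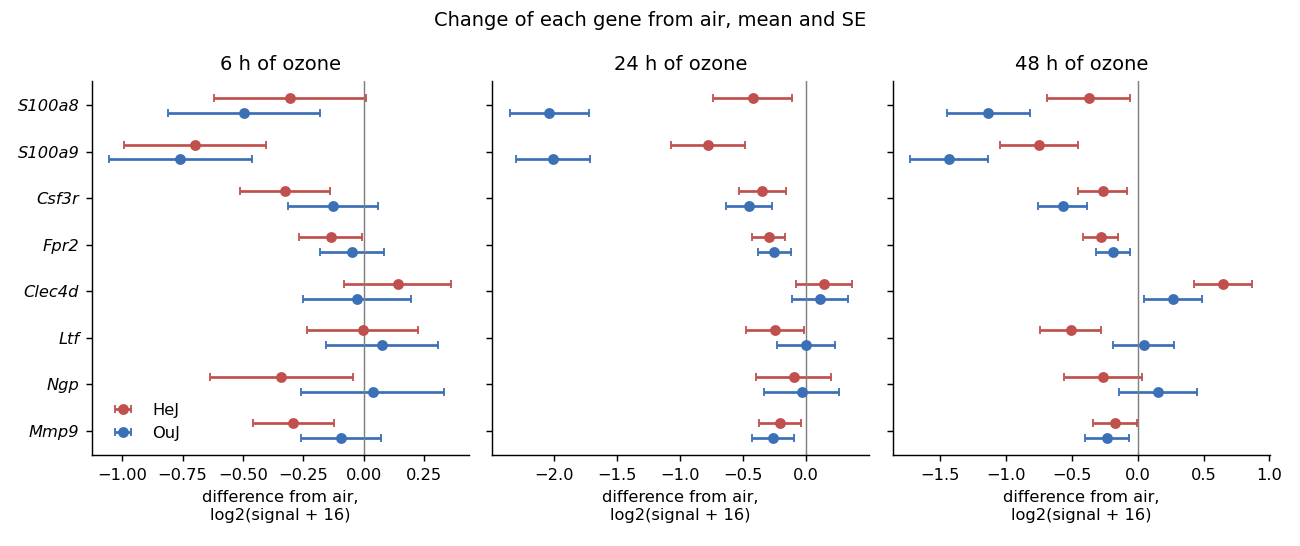
Difference of each gene from air of the same strain on the log2(signal + 16) scale (horizontal axis) after 6, 24 and 48 h of ozone, with bars of 1 SE from the fit; HeJ is drawn above OuJ for each gene and the horizontal scales differ between panels. S100a8 and S100a9 in OuJ lungs at 24 h, at -2.04 and -2.01, lie farthest from 0.

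Within groups, S100a8 and S100a9 were high or low in the same mice. After the mean of each group was removed, so that exposure and strain no longer entered, Pearson's r between them was 0.80 over 24 arrays and Spearman's rho was 0.80. Shuffling arrays within groups 100000 times gave two-sided permutation p-values of 0.00054 and 0.00045, or 0.00378 and 0.00315 adjusted over the 7 relations computed. Pearson's r was 0.71 without the 2 mice farthest from the median. By code series it was 0.94 in series 3 (12 arrays), 0.93 in series 13 (6 arrays) and 0.24 in series 10 (6 OuJ arrays of 24 and 48 h), so it did not hold at that size in the last of these. The RNAs of both genes in a mouse share a lobe, an array and its scaling. The share of other gene pairs with such an r was not computed, so nothing particular to this pair is read from it.

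The other genes followed calprotectin less closely. Against the mean of S100a8 and S100a9, Ngp had an r of 0.54 and a rho of 0.54 within groups (permutation p of 0.0253 and 0.0263, adjusted 0.0886 and 0.0921), with 0.46 after leaving out the 2 farthest mice. Its r was 0.58 in series 3, 0.67 in series 13 and -0.79 in series 10. Mmp9 had 0.40 (adjusted p of 0.254, permutation test), Csf3r 0.32 (0.338), Ltf 0.29 (0.406), Clec4d 0.10 (0.828) and Fpr2 -0.05 (0.847), with rho of 0.32, 0.34, 0.30, 0.11 and -0.08. None of these 6 passed the adjustment. In series 10, where S100a8 and S100a9 had 0.24, r was 0.92 for Mmp9, 0.77 for Csf3r and 0.68 for Ltf. It was -0.11 for Clec4d and -0.31 for Fpr2 there. In series 3 Mmp9, Csf3r and Ltf had 0.21, 0.29 and 0.35, and in series 13 they had 0.39, 0.18 and 0.15. The values by series were not tested.

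**Figure D4:**
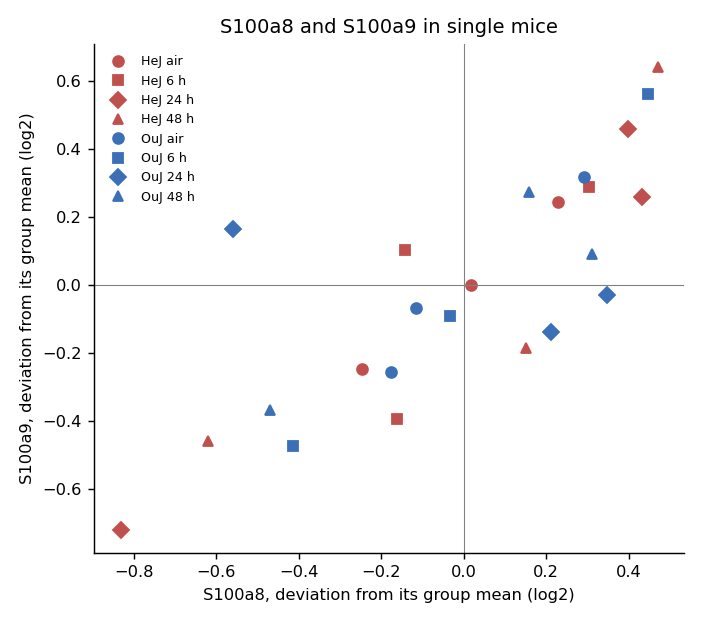
Deviation of S100a9 (vertical) against that of S100a8 (horizontal) from the mean of their group, in log2(signal + 16), 1 point for each of 24 mice; colours give the strain and shapes the exposure. Most points follow the rising diagonal (r = 0.80), with the lowest HeJ mouse of 24 h at the lower left and 1 OuJ mouse of 24 h off it at the upper left.

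The mouse with the lowest HeJ values, replicate 1 at 24 h, has a suffix to its sample code, as do replicate 3 of that group, replicate 2 of HeJ 6 h and replicate 2 of HeJ air. Its ratio of 5' to 3' Gapdh signal, a measure of RNA length, was 0.944, the highest of the 12 HeJ arrays (0.497 to 0.944, with 0.781 to 1.03 in OuJ arrays). The part of these features in its calprotectin level was not tested. Without the 4 suffixed arrays, S100a8 at 6 h in HeJ lungs differed from air by -0.58 in place of -0.30.

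As a description of likeness over all 24 arrays, the genes closest to the mean log2 level of S100a8 and S100a9 were Lat and Lst1, each with a Pearson r of 0.80 among 8006 other genes. Lat encodes an adaptor of T cell receptor signalling and Lst1 a small leukocyte protein. They were followed by Ttc5, Grcc10 and Slc2a3 (a glucose transporter) at 0.78, Myh7 (a myosin heavy chain) at 0.75, and Rab24 and Rab11b (small GTPases) at 0.74. The points share arrays, groups and code series. Csf3r came 134th with 0.63, Mmp9 274th with 0.56, Fpr2 1363rd with 0.35, Ngp 1433rd with 0.34, Ltf 2166th with 0.25 and Clec4d 6221st with -0.19. By this measure the 8 genes do not form 1 pattern.

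Other genes linked to neutrophils were examined in 4 lists of 81 genes. Of these, 65 are on the array under a single symbol and 35 were tested. The lists hold granule proteins, surface receptors, transcription factors and enzymes, and growth factors and attractants that act on neutrophils. They are called listed neutrophil genes below, but other cells also make some of them. A call is therefore not read as a change in neutrophils. A change passed at limma's adjusted p of 0.05. In HeJ lungs 0 of the 35 passed at 6 h (0.0375% of all genes did), 5 rose and 1 fell at 24 h (7.11%), and 9 rose and 1 fell at 48 h (12.1%). In OuJ lungs 1 rose at 6 h (0.137%), 7 rose and 3 fell at 24 h (6.57%), and 5 rose and 1 fell at 48 h (7.9%). Over all genes, 252 rose and 317 fell at 24 h and 454 and 516 at 48 h in HeJ lungs, and 253 rose and 273 fell at 24 h and 296 and 337 at 48 h in OuJ lungs. Leaving out replicate 3 of OuJ 24 h left 3 calls at that time, leaving out replicate 1 of OuJ air or replicate 3 of OuJ 48 h left 3 at 48 h, and leaving out replicate 2 of HeJ 48 h left 6 there. Without the suffixed arrays 1 was left in HeJ lungs at 24 h. The ozone calls of Lcn2, Pglyrp1, Chil3, S100a14 and S100a6 were kept under every setting run, whereas at least 1 setting ended each call of Cebpd, Cebpb, Ncf4, Fgr, Mgst1, Icam1, S100a4 and S100a10. The same holds for Cxcl1, Cxcl5, Coro1a and Hp in HeJ lungs at 24 h, and in OuJ lungs for Hp at 6 h, Cxcl1 at 24 h and Cxcl5 at 48 h. The median difference of the 35 lay between -0.12 and 0.11 over the 6 comparisons, and that of all genes between -0.03 and -0.02.

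Of the 20 granule and secreted proteins, 7 were tested, of which 2 rose at 24 h and 4 at 48 h in HeJ lungs, and 1, 2 and 2 rose at 6, 24 and 48 h in OuJ lungs. Lcn2 (lipocalin 2, which binds bacterial siderophores and is also made by epithelium) averaged 2797 after 24 h and 3654 after 48 h in HeJ lungs, against 1061 in air, and rose by 1.41 ± 0.19 and 1.78 ± 0.19 (adjusted p of 9.76e-05 and 4.87e-06). In OuJ lungs Lcn2 rose by 1.13 and 1.10 at these times (adjusted p of 0.000759 and 0.001). Hp (haptoglobin, which binds free haemoglobin) rose at all 3 times in OuJ lungs, by 0.47, 0.70 and 0.44, and at 24 and 48 h in HeJ lungs, by 0.28 and 0.48. Pglyrp1 (a peptidoglycan recognition protein) rose by 1.16 and Chil3 (a chitinase-like protein, also of alveolar macrophages) by 0.80 in HeJ lungs at 48 h (adjusted p of 0.00193 and 0.00392). Their OuJ values at 48 h were 0.43 and 0.49 (adjusted p of 0.289 and 0.0888), and the strain difference of these changes did not pass for either (adjusted p of 0.552 and 0.819). None of the granule proteins tested fell. The list's median in OuJ lungs at 24 h, where S100a8 and S100a9 were lowest, was 0.51, against -0.03 for all genes. It covers only the 7 genes tested, while Mpo, Elane, Prtn3, Ctsg, Camp, Mmp8, Cd177 and Stfa3 were below the filter. Ltf, Ngp and Mmp9 (brighter probe set), which the list leaves out, differed from air by -0.002, -0.03 and -0.26 in OuJ lungs at 24 h.

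Among 7 tested surface receptors, Mgst1 (a microsomal glutathione transferase that the list includes) rose by 0.39 in OuJ lungs at 24 h (adjusted p of 0.0366), and no other member passed at any time. Transcription factors and enzymes, 13 tested, held changes in both directions. Cebpd and Cebpb, transcription factors of the C/EBP family, rose: Cebpd by 1.27 and 0.89 in HeJ and 0.94 and 0.87 in OuJ lungs at 24 and 48 h, and Cebpb by 0.55 in HeJ lungs at 48 h and by 0.77 and 0.70 in OuJ lungs at 24 and 48 h. Coro1a (coronin 1A, an actin regulator of white cells in general) fell at 24 and 48 h by 0.92 and 1.12 in HeJ and by 1.37 and 0.94 in OuJ lungs. Ncf4, a cytosolic subunit of the NADPH oxidase, fell by 0.73 in OuJ lungs at 24 h (adjusted p of 0.0094), and so did Fgr, a kinase of myeloid cells, by 0.55 (0.0452).

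Of 8 tested growth factors and attractants of neutrophils, 2 rose at 24 h and 3 at 48 h in HeJ lungs, and 2 at 24 h and 1 at 48 h in OuJ lungs. Cxcl5 averaged 124.7 after 24 h and 233 after 48 h in HeJ lungs, against 5.7 in air, and 146.4 and 59.5 in OuJ lungs at these times, against 3.67 in air. It rose by 2.67 and 3.48 in HeJ lungs (adjusted p of 0.00308 and 0.000142) and by 2.93 and 1.93 in OuJ lungs (0.00116 and 0.024), and since its air signals were under the pseudocount of 16, these sizes depend on it. Cxcl1, another ligand of CXCR2, rose by 1.66 and 2.36 in HeJ lungs at 24 and 48 h and by 2.04 in OuJ lungs at 24 h (adjusted p of 0.0178, 0.000869 and 0.00463), and its OuJ value at 48 h was 1.11 (0.119). Icam1, which binds neutrophil integrins, rose by 0.33 in HeJ lungs at 48 h (0.0396). Csf3, the ligand of Csf3r, and Cxcl2 were below the filter, with at most 109.1 and 170.6.

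**Figure D5:**
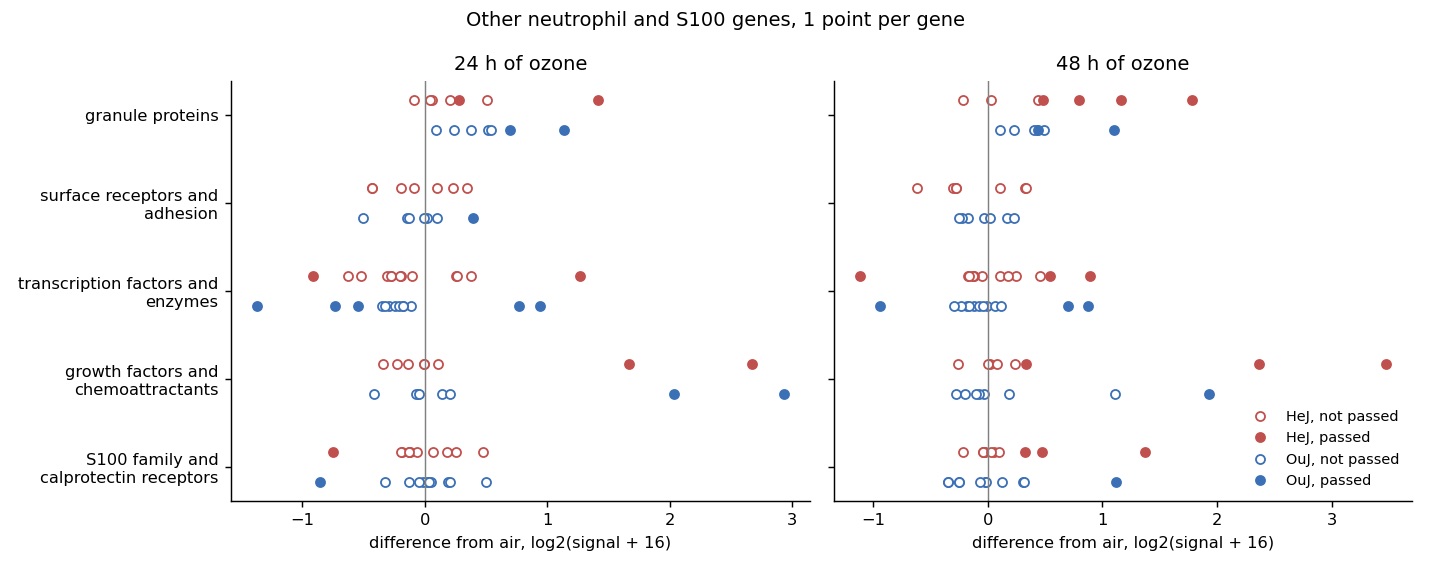
Difference from air of the same strain, log2(signal + 16), for each tested gene of the 4 neutrophil lists and of the S100 family list after 24 h (left) and 48 h (right) of ozone; filled points passed an adjusted p of 0.05, open points did not, and HeJ is drawn above OuJ. Filled granule protein points all lie right of 0, with Lcn2 farthest, and Coro1a is the leftmost filled point.

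The other S100 genes and receptors of calprotectin (11 of 16 tested) had 1 fall at 24 h in either strain, and 3 rises in HeJ and 1 in OuJ lungs at 48 h. S100a4, of the same cluster on chromosome 3, fell at 24 h by 0.75 in HeJ and by 0.86 in OuJ lungs (adjusted p of 0.0408 and 0.0193). S100a14, an epithelial member, rose at 48 h by 1.38 and 1.12 in these strains (1.13e-05 and 0.000195), and S100a6 and S100a10 rose by 0.48 and 0.33 in HeJ lungs at 48 h (0.00765 and 0.0471). Receptors of calprotectin on the list, Tlr4 among them, did not pass at any ozone time.

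In air, 62 genes, 0.774% of all, differed between HeJ and OuJ lungs, among them 0 of the 8 and 2 of the 35 listed neutrophil genes. The Gapdh ratio also differed between these groups without overlap, as given above, and its part in these calls was not tested. Hp was higher in HeJ lungs by 0.49 and Hc, complement component C5, by 0.48 (adjusted p of 0.0027 and 0.0276), and at least 1 setting ended either call. Between 48 and 24 h, 5.47% of all genes (438) passed in HeJ and 0.15% in OuJ lungs, but the HeJ count was 104 without replicate 1 of HeJ 24 h, 106 without replicate 3 of HeJ 24 h and 1 without the suffixed arrays. Pglyrp1 was higher at 48 h in HeJ lungs by 0.95 and Hdc, histidine decarboxylase, by 1.08 (adjusted p of 0.0194 and 0.0218). Neither call was kept without replicate 3 of HeJ 24 h (0.78 for both genes, adjusted p of 0.11 for Pglyrp1 and 0.143 for Hdc), nor without the suffixed arrays (0.589 for Pglyrp1 and 0.656 for Hdc). Of the 8 genes, 0 passed in either strain. Nothing is read from this or from their count in air, since they were chosen on these same values. No listed neutrophil gene passed for the strain difference of the ozone change at any time.

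Markers of other blood cells moved in the same comparisons. Of 6 B cell markers, 5 fell in HeJ lungs at 24 and at 48 h, and 6 at 24 h and 5 at 48 h in OuJ lungs. Their summed signal per mouse was 1552 to 2191 in HeJ 24 h and 1565 to 2043 in HeJ 48 h, against 3601 to 4389 in HeJ air, and 1146 to 1671 in OuJ 24 h and 1758 to 1968 in OuJ 48 h, against 3409 to 4184 in OuJ air. Cd79a, a chain of the B cell receptor complex, fell at 24 h by 1.47 in HeJ and by 1.78 in OuJ lungs (adjusted p of 0.000428 and 4.43e-05), where Cd79b fell by 1.78, and Cd22 fell by 0.91 in HeJ lungs. The T cell markers Cd3g and Cd3d, of 3 tested, fell in OuJ lungs at 24 h (by 1.16 and 2.16) and in HeJ lungs at 48 h (by 0.86 and 1.89), and the list's summed signal was 357.5 to 407.2 in OuJ 24 h, against 707.2 to 945.4 in OuJ air. Monocyte markers fell for 3 of 8 in OuJ lungs at 24 h, with Plac8 by 1.02 and F13a1 by 0.49, and Plac8 fell in HeJ lungs at 24 h by 1.03, while Nr4a1 fell there at 48 h by 1.86. At least 1 setting ended the calls of Cd79a, Cd22 and Plac8 in HeJ lungs at 24 h, of Cd3d in both comparisons, and of F13a1. The part of these cells in the calprotectin differences was not tested.

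Platelet and red cell markers, which enter the lobe with its blood, were also measured. Platelet genes Pf4 and Ppbp, 2 of 6 tested, fell by 0.44 and 0.90 in OuJ lungs at 24 h (adjusted p of 0.0264 and 0.0283), and the list's summed signal was 2149 to 2267 there, against 2660 to 2994 in OuJ air. In HeJ lungs 0 platelet genes passed at any time. Of 3 tested red cell markers, 2 fell at 24 h and 3 at 48 h in HeJ lungs and 0 passed in OuJ lungs, among those that fell Slc4a1 by 1.48 at 24 h and Hbb-b2 and Alas2 by 1.03 and 1.02 at 48 h. Their summed signal was 2713 to 3269 in HeJ 48 h, against 5190 to 7793 in HeJ air, and 3982 to 5352 in OuJ 24 h, against 5178 to 7643 in OuJ air. Of 9 macrophage markers only Plet1 and Marco passed, rising in HeJ lungs at 48 h by 0.71 and 2.00. Kit, 1 of 2 mast cell markers tested, fell in HeJ lungs at 24 h by 0.40 and in OuJ lungs at 48 h by 0.42, and 5 eosinophil markers stayed under the filter, with Epx and Prg2 at most 96.8 and 61.1. At least 1 setting ended the calls of Pf4, Ppbp, Plet1 and Kit, and that of Slc4a1 at 24 h. The part of blood content in the calprotectin differences was not tested.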

How the data were processed

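The values deposited are signal intensities of 22690 probe sets for 24 labelled arrays, on a linear scale. They were made by the authors with GCOS 1.4, per the submitters' processing notes, and the mean after trimming 2% from each tail was 500.1 to 500.2 in every array, so they were scaled to a common level. Detection calls and raw images were not used here. Log2(intensity + 16) was computed from the deposited values, with log2 units throughout. Probe sets above 218.3 in at least 3 arrays were kept (12866), and a gene with 1 symbol was represented by its brightest such probe set on average (8008 genes). Of the probe sets, 20380 have 1 symbol, 691 several and 1555 none, and 64 are controls.

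The 24 arrays entered a single limma fit (version 3.58.1, R 4.3.3, with data.table release 1.17.8 for input) whose terms are the 8 group means, with variances moderated along an intensity trend. It gave 12 comparisons: 6, 24 and 48 h of ozone against air within HeJ and within OuJ, the HeJ change minus the OuJ change at those times, HeJ against OuJ in air, and 48 against 24 h in either strain. P-values are two-sided and adjusted by the Benjamini-Hochberg method over all genes of a comparison, and a gene passed under 0.05. In simulated data with the design of OuJ 24 h against air, over 8008 genes, 85% of genes changed by a log2 value of 1 and 100% of those changed by 2 were recovered, with 9 false calls. The simulated noise was drawn independently for each gene and array, without effects of array or code series. These rates therefore need not hold for the real arrays.

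The 8 genes and the 13 lists (167 genes, 83 tested) were chosen with earlier results of these data known. Named are all 8 genes, up to 4 passing genes per neutrophil or S100 list and ozone comparison, up to 2 per list of another cell type, the 8 genes most like calprotectin, and Tlr4. Fgr, Hc, Hdc and the genes below the filter were named after their values were seen. Replicates are separate mice, per the labels, and within a group arrays correlated at 0.966 to 0.979. Deviations from the group means correlated at -0.10 to 0.20 (median 0.03) over 84 pairs of arrays that share a replicate number and at -0.24 to 0.26 (median -0.02) over 168 pairs that do not. Not every same-numbered pair exceeded 0.1, so numbers were not used for pairing. Promoters are from RefSeq. Arrays give no counts, so the number of mice limits the precision.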

Additional observations from a re-analysis of the deposited data

Results flagged for a closer look

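In 5 cases all 3 ozone arrays of HeJ lungs lay on one side of the mean of the HeJ air arrays while all 3 of OuJ lungs lay on the other side of the mean of the OuJ air arrays. They are S100a4 at 48 h, with 0.10 in HeJ and -0.35 in OuJ lungs (a strain difference of 0.44 on the log2 scale), and Ppbp at 24 h, with 0.49 in HeJ and -0.90 in OuJ lungs (1.39). Plet1 at 6 h had 0.24 in HeJ and -0.11 in OuJ lungs (0.34), and Rab24 at 6 h had 0.12 in HeJ and -0.22 in OuJ lungs (0.34). Hc at 6 h had -0.17 in HeJ and 0.18 in OuJ lungs (-0.35). The OuJ ozone and air arrays overlapped for S100a4, Ppbp, Plet1 and Hc at these times, and the HeJ arrays for Hc. By direction alone the differences were not tested. In limma's fit the strain difference did not pass for any of the 5 (adjusted p of 0.771 for S100a4, 0.33 for Ppbp, 0.842 for Plet1 and 0.823 for both Rab24 and Hc). Groups of 3 arrays were not searched for outlying arrays.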

How the results depend on the processing

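No call of a listed gene reversed under any setting run, and of the 8 genes the sign of small differences, such as those of Ngp, turned with single arrays. Settings run included pseudocounts of 1 and 64, median centring or quantile normalization, other filters and probe set choices, no intensity trend, fits on fewer arrays, a replicate block, and leaving out each array in turn. The count of listed neutrophil genes called at 6 h in OuJ lungs (1) went to 0 with no filter, with only the groups compared and with only arrays of the same code series, and was 0 to 2 when 1 array was left out. At 6 h in HeJ lungs the count of 0 became 1 with the replicate block and was 0 to 1 with 1 array left out. Without the suffixed arrays the HeJ count at 24 h was 1 in place of 6, and S100a8 at 6 h in HeJ lungs was -0.58. Leaving out 1 array gave 6 to 10 calls in HeJ at 48 h, 3 to 9 in OuJ at 24 h and 3 to 6 in OuJ at 48 h. Of 71 calls of listed genes, 31 were kept in every setting. The replicate block moved the count over all genes from 11 to 35 in OuJ at 6 h and from 62 to 97 for the strains in air. Without the suffixed arrays the counts over all genes were 41 in HeJ at 24 h, against 569, 20 for the strains in air and 1, against 438, for 48 against 24 h in HeJ. Median centring gave 38 in OuJ at 6 h. With 1 array left out they ran from 0 to 59 in HeJ at 6 h, against 3, from 3 to 128 in OuJ at 6 h, from 334 to 627 in HeJ at 24 h, from 609 to 695 in HeJ at 48 h, against 970, from 241 to 415 in OuJ at 24 h and from 287 to 542 in OuJ at 48 h. In the same way they ran from 19 to 59 for the strains in air and, for 48 against 24 h, from 104 to 649 in HeJ and from 6 to 22 in OuJ lungs, against 12. With only the groups compared, the strain difference at 48 h had 11 calls in place of 0. The within-group r of S100a8 with S100a9, whose alternatives were chosen after seeing the data, was 0.72 to 0.92 with 1 array left out and 0.69 without the suffixed arrays. The cause of these shifts was not tested. With 3 mice a group, and with exposure times of 24 and 48 h in code series of their own, the values cannot separate exposure from code series. The same holds for the strain difference of the ozone change at 24 and 48 h.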

Other observations

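Among 30 listed neutrophil genes that stayed below the filter, 1 array held 6 of the highest signals (replicate 1 of OuJ 48 h) and another 4 (replicate 1 of HeJ 48 h). The array of OuJ 48 h also had the highest median signal of all arrays (229.3) and the lowest share of probe sets under 16 (8.69%). The part of this in its count was not tested. Camp, which encodes the granule peptide cathelicidin, had 123.8 in replicate 1 of HeJ 48 h, and the next highest array had 24.2. That mouse also had the high Ngp signal of 448.4 and the highest S100a8 and S100a9 signals of its group, 864.9 and 835.7. Cd177, a surface protein of neutrophils, had 470 in replicate 2 of HeJ 48 h and at most 216 elsewhere. Trem1, an amplifying receptor of myeloid cells, had 198.5 in replicate 1 of OuJ 48 h and at most 113.4 elsewhere. These are single arrays, chosen after their values were seen, with no comparison behind them.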
